A study of Homo sapiens with 6 samples.

Results

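The genes of the proteasome were examined in 22Rv1 cells, a human castration-resistant prostate cancer cell line, after knockdown of MED12, a part of the Mediator kinase module. Mediator is the complex that relays signals from transcription factors to RNA polymerase II. Members were chosen by symbol alone: the PSMA, PSMB, PSMC and PSMD genes with a number, the activators PSME1 to PSME4, the inhibitor PSMF1 and the assembly chaperones PSMG1 to PSMG4. This gave 46 of the 17901 genes with a deposited expression value. The symbols PSMA8, a testis subunit, and PSMB11, a thymus subunit, were also in the count table, PSMA8 with no count in any library and PSMB11 with 0 to 2 counts, and were not among the expressed genes. Of the members, 14 encode the core particle, 22 the regulatory particles, activators and inhibitor, 3 the immunoproteasome subunits and 7 the assembly chaperones.

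The study asked how loss of MED12 changes gene expression in prostate cancer cells. Full transcriptome RNA-seq was performed on 3 libraries of cells transfected with siCtrl, a non-targeting siRNA pool, and 3 libraries of cells transfected with siMED12, a pool of siRNAs against human MED12. Both groups were 22Rv1 cells that were plated 24 h ahead, received 25 pmol of siRNA pool with a fresh medium after 6 h and were collected on day 3. The study's methods speak of biological replicates for its experiments in general. The labels number the libraries of each group 1 to 3 but do not say what a number stands for, and p-values measure only the spread between these samples. With 1 cell line and 1 pool against MED12, effects of lost MED12 and effects of the pool on other transcripts cannot be told apart.

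The proteasome is the large protease that degrades proteins tagged with ubiquitin. Its barrel-shaped core particle (20S) is built from rings of alpha and beta subunits, and the catalytic sites sit on PSMB6 (caspase-like), PSMB7 (trypsin-like) and PSMB5 (chymotrypsin-like). The regulatory particle (19S) caps the barrel: its base holds the ATPases PSMC1 to PSMC6, which unfold substrates, and its lid holds PSMD14, which removes ubiquitin. After interferon, the catalytic subunits can be replaced by the immunoproteasome subunits PSMB9, PSMB10 and PSMB8, and the activator PA28, made of PSME1 and PSME2, can replace the cap. Prostate cancer cells, like other dividing cells, express the constitutive proteasome at a high level, and the transcription factor NFE2L1 raises its genes together when proteasome activity is low.

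Total counts per library ranged from 16136699 to 17012788, and mitochondrial genes took 4.43% to 10.1% of them, a share that followed the replicate number rather than the group. The targeted gene was checked first. MED12 stood at 67.8, 77.7 and 72.6 CPM (siCtrl) against 23.9, 14.97 and 30.1 CPM (siMED12), where CPM is counts scaled to the TMM-adjusted library size and values are given in the order of replicates 1 to 3. The groups did not overlap, and the log2 fold change was -1.66 (SE 0.23, edgeR quasi-likelihood test with Benjamini-Hochberg adjustment over all 17901 genes, adjusted p = 0.0314), although leaving out siCtrl replicate 1, siCtrl replicate 2, siMED12 replicate 1 or siMED12 replicate 2 raised the adjusted p to between 0.0818 and 0.186. All 8 luminal prostate markers were expressed, with a summed level of 2901 to 2963 CPM in siCtrl and 2472 to 2582 CPM in siMED12. Of 8 markers of immune, endothelial, stromal and basal cells, CD3E, KRT5 and KRT14 had no count and 7 stayed below 1 CPM in each library. COL1A1, at 14.9 to 27.4 CPM, was the exception. The part of the lower luminal sum in the results on the proteasome was not tested.

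Knockdown of MED12 went with small decreases of many constitutive proteasome genes and with increases of 2 immunoproteasome genes, both PA28 genes and PSMD10, and these differences passed the test only when libraries of the same number were compared with each other. Without that pairing no member reached an adjusted p of 0.05 in either direction (edgeR), against a background of 0.413% of all genes called lower and 0.151% called higher. At an unadjusted p below 0.05 there were 6 lower members of 46, against 7.93% of all genes, and 3 higher members, against 7.65%, and the smallest adjusted p was 0.132 for PSMA3. The DESeq2 Wald test called 1 member lower (2.17%, against 2.69% of all genes) and none higher. Libraries of the same number deviated together from their group means, so a second edgeR fit took that number as a block. With the block, 20 of 46 members (43.5%) were called lower, against 16.2% of all genes, and 5 (10.9%) were called higher, against 17.1% of all genes. The remaining 21 members did not pass. In what follows, a gene is said to fall or rise where its adjusted p with the block was below 0.05, and none of these calls was made by the edgeR fit without it. In bulk RNA, fewer cells of a kind and less RNA per cell cannot be told apart.

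The called decreases were small, with log2 fold changes of -0.38 to -0.12. The median log2 fold change over the 46 members was -0.08, against 0.02 over all genes tested, and the member medians within pairs 1, 2 and 3 were -0.09, -0.12 and -0.08. Within all 3 pairs 24 members were lower in siMED12 (52.2%, against 27.0% of all genes) and 9 were higher (19.6%, against 30.6%). The groups did not overlap for 9 lower members (19.6%, against 10.9% of all genes) and 4 higher members (8.70%, against 11.2%). siCtrl replicate 3 was the lowest of the siCtrl libraries for 27 of 46 members (58.7%), against 42.2% of all genes. Added up, the 46 members reached 4379 to 4864 CPM in siCtrl and 4124 to 4515 CPM in siMED12, ranges that overlapped.

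**Figure D1:**
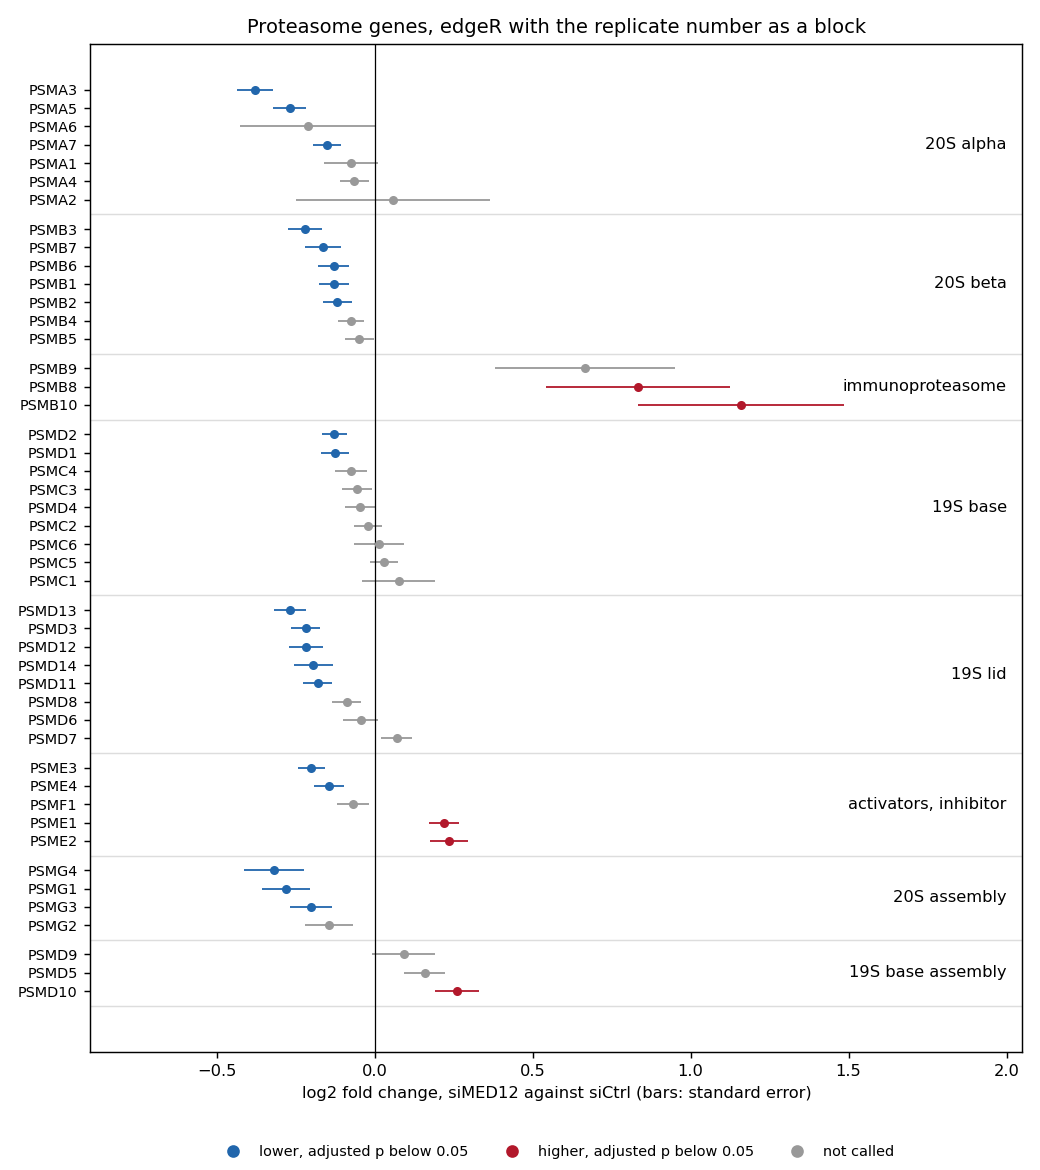
Log2 fold change (siMED12 against siCtrl, x axis) of the 46 proteasome genes (y axis, grouped by part of the complex) from the edgeR fit that blocks on the replicate number; points are estimates, bars are standard errors and colours mark the 20 genes called lower, the 5 called higher and the 21 not called. The beta ring and the lid lie mostly left of 0, the 6 ATPases of the base lie within 0.08 of 0, and the 3 immunoproteasome genes lie farthest right with wide bars.

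The alpha ring gates entry into the core. Of its 7 genes, PSMA3, PSMA5 and PSMA7 fell (42.9%, against 16.2% of all genes) and none rose (against 17.1% of all genes). PSMA3, the member with the largest decrease, stood at 89.0, 86.8 and 83.4 CPM (siCtrl) against 73.5, 61.7 and 64.5 CPM (siMED12). Each siMED12 library was below each siCtrl library, the differences within pairs 1 to 3 were -17.4%, -28.9% and -22.6%, and the result was a log2 fold change of -0.38 ± 0.06 (SE, adjusted p = 1.15e-06). PSMA5 stood at 94.9, 102 and 100.3 CPM (siCtrl) against 81.9, 81.7 and 83.0 CPM (siMED12), also without overlap, with pair differences of -13.7%, -19.9% and -17.2% and a log2 fold change of -0.27 ± 0.05 (SE, adjusted p = 7.75e-05). PSMA7, the alpha gene with the most transcript per length, went from 180.0 ± 6.27 to 162 ± 1.03 CPM (SD, n = 3), a log2 fold change of -0.15 ± 0.04 (SE, adjusted p = 0.00624). PSMA1, PSMA2, PSMA4 and PSMA6 had log2 fold changes between -0.21 and 0.06 and did not pass.

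The beta ring carries the protease sites. All 7 constitutive beta genes were lower in siMED12 within each pair, as were 27.0% of all genes. PSMB1, PSMB2, PSMB3, PSMB6 and PSMB7 fell (71.4%, against 16.2% of all genes). PSMB3, a structural subunit, stood at 94.2, 93.0 and 85.9 CPM (siCtrl) against 82.0, 76.6 and 75.7 CPM (siMED12), without overlap between the groups and with a log2 fold change of -0.22 ± 0.05 (SE, adjusted p = 0.00110). The constitutive catalytic subunits had smaller estimates than PSMB3, as did PSMB1 (-0.13 ± 0.05, SE) and PSMB2 (-0.12 ± 0.05, SE). PSMB7 stood at 85.3, 86.8 and 78.6 CPM (siCtrl) against 77.3, 69.7 and 77.1 CPM (siMED12), without overlap and with a log2 fold change of -0.16 ± 0.06 (SE, adjusted p = 0.0247). For PSMB6 the libraries read 114, 127 and 116 CPM (siCtrl) against 112, 111 and 103 CPM (siMED12), again without overlap, and the log2 fold change was -0.13 ± 0.05 (SE, adjusted p = 0.0392). PSMB5, the target of proteasome inhibitor drugs, stood at 146, 152 and 134 CPM (siCtrl) against 143, 147 and 128 CPM (siMED12), groups that overlapped, and its log2 fold change of -0.05 ± 0.05 (SE, adjusted p = 0.455) did not pass. PSMB4 did not pass either (-0.08 ± 0.04, SE). The 14 core genes summed to 1520.1 to 1641 CPM in siCtrl and 1409 to 1461 CPM in siMED12, without overlap, and the core median was -0.13.

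**Figure D2:**
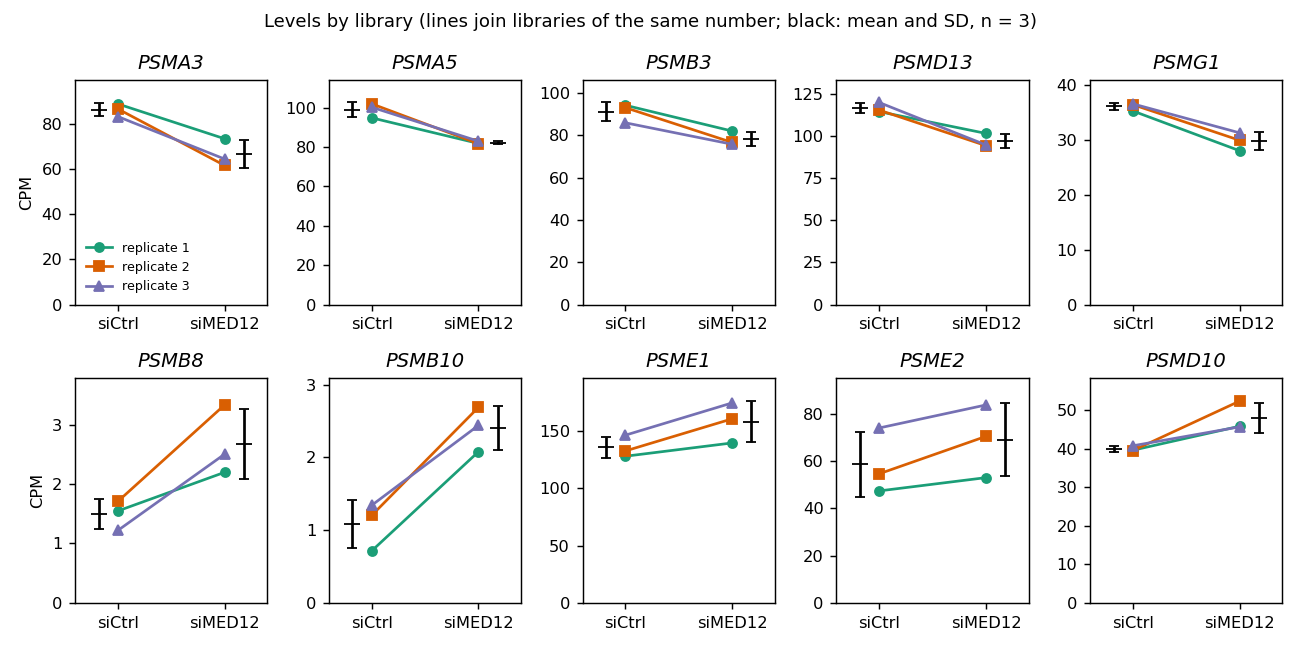
CPM (y axis, from 0) of 10 members in each library; lines join libraries of the same replicate number, and black marks are the mean and SD of each group (n = 3). The upper row holds members that fell and whose groups did not overlap, and the lower row holds the 5 members that rose, of which PSME1 and PSME2 overlapped between the groups although each line climbs.

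The immunoproteasome genes had higher estimates in siMED12, from very low levels. PSMB10, the inducible trypsin-like subunit, stood at 0.714, 1.20 and 1.34 CPM (siCtrl) against 2.08, 2.69 and 2.44 CPM (siMED12), which rests on 12 to 22 reads per siCtrl library and 35 to 46 per siMED12 library. The groups did not overlap, and the log2 fold change was 1.16 ± 0.33 (SE, adjusted p = 0.00489). PSMB8, the inducible chymotrypsin-like subunit, stood at 1.55, 1.71 and 1.22 CPM (siCtrl) against 2.20, 3.33 and 2.50 CPM (siMED12) from 20 to 57 reads, likewise without overlap, with a log2 fold change of 0.83 ± 0.29 (SE, adjusted p = 0.0234). PSMB9, the inducible counterpart of PSMB6, stood at 2.20, 1.08 and 1.83 CPM (siCtrl) against 2.67, 2.16 and 3.19 CPM (siMED12). It was higher in siMED12 in all 3 pairs, but the groups overlapped, and its log2 fold change of 0.67 ± 0.28 (SE, adjusted p = 0.0677) did not pass. These calls depended on single pairs: PSMB10 had an adjusted p of 0.0512 without pair 1, and PSMB8 one of 0.144 without pair 2, 0.113 without pair 3 and 0.141 with the blocked DESeq2 Wald test.

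In both groups the inducible subunits stayed far below their constitutive counterparts. Per kilobase of transcript, PSMB8 reached 0.957% ± 0.101 (SD, n = 3) of the level of PSMB5 in siCtrl and 1.78% ± 0.342 in siMED12. For PSMB10 against PSMB7 the shares were 1.32% ± 0.442 and 3.26% ± 0.593. For PSMB9 against PSMB6 they were 1.18% ± 0.447 and 2.01% ± 0.478, and here the highest siCtrl library, at 1.56%, nearly met the lowest siMED12 library, at 1.57%. No share overlapped between the groups. An exact permutation test of 3 against 3 libraries cannot go below p = 0.1, so that none is given. Lengths are those of the canonical transcripts.

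**Figure D3:**
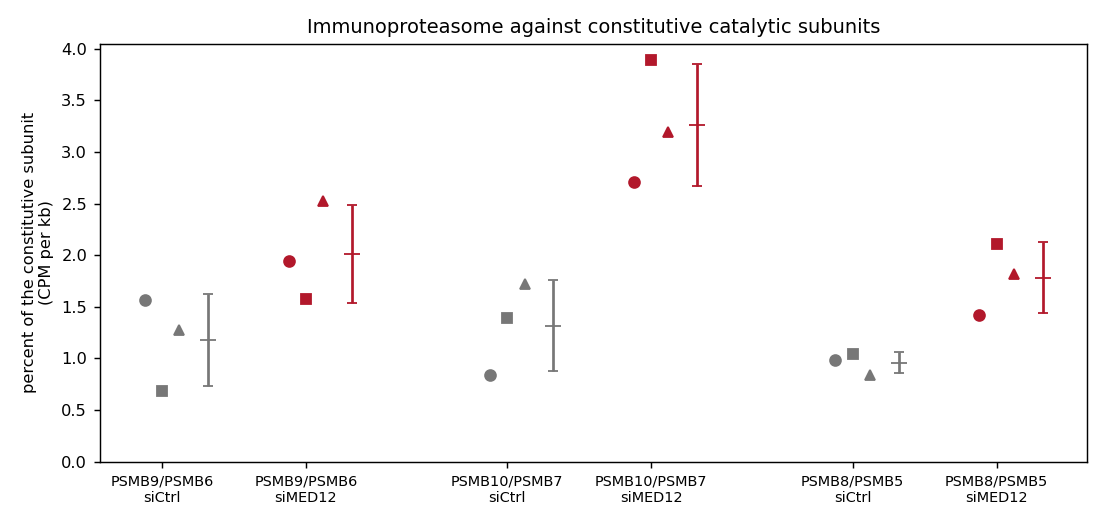
Level of each immunoproteasome subunit as a percent of its constitutive counterpart (y axis, CPM per kilobase, from 0), by library (circle, square and triangle for replicates 1, 2 and 3) with the mean and SD of each group (n = 3, grey siCtrl, red siMED12). All siMED12 libraries lie above all siCtrl libraries of the same pair of genes, and no share exceeds 4%.

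PA28 opens the core without ATP and, as the immunoproteasome does, serves the production of peptides for MHC class I. Its genes PSME1 and PSME2 were expressed at 141 and 74.0 CPM per kilobase in siCtrl. The constitutive beta genes ranged from 34.3 (PSMB2) to 309.9 (PSMB4), and the inducible catalytic subunits from 1.11 (PSMB10) to 1.67 (PSMB9). PSME1 stood at 128, 133 and 147 CPM (siCtrl) against 139.8, 161 and 175 CPM (siMED12), higher by 9.07%, 21.1% and 19.3% in the pairs, with a log2 fold change of 0.22 ± 0.05 (SE, adjusted p = 0.000244), and was the one member called higher in each of 7 blocked settings. PSME2 stood at 47.4, 54.7 and 74.1 CPM (siCtrl) against 53.0, 70.5 and 83.8 CPM (siMED12). The rise of PSME2 within pairs was 11.9%, 29.0% and 13.2%, smaller in CPM than the range of either group, and its log2 fold change was 0.24 ± 0.06 (SE, adjusted p = 0.00197). Without pair 2 the adjusted p of PSME2 was 0.122. The remaining regulators did not share this direction. PSME3, the nuclear activator PA28 gamma, fell from 209 ± 17.1 to 182 ± 22.6 CPM (SD, n = 3) with a log2 fold change of -0.20 ± 0.04 (SE, adjusted p = 0.000314), and PSME4, the activator PA200, fell with -0.14 ± 0.05 (SE, adjusted p = 0.0171). PSMF1, the inhibitor PI31, went from 100.6 ± 11.2 to 96.0 ± 11.7 CPM and did not pass (-0.07 ± 0.05, SE).

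PSMB8, PSMB10, PSME1 and PSME2 are shown with the sequence around their start because a motif of one form recurred there. The letters GAAANNGAA, a form of the interferon-stimulated response element, or their reverse complement lay in the RefSeq promoter windows (250 bases before to 50 after the start, GRCh38.p14) of 8 of 40 members that had a window (20%), against 9.86% of 27305 genes. They were in 4 of the 5 members that rose and in 1 of 15 that fell and had a window. PSMA4, PSMB4 and PSMC2 also held a match and did not pass, and PSMB9 had a window without one. For motifs, all genes means the 27305 with a window, which include genes without a deposited expression value. The exact letters GAAAGCGAA, noticed after these windows were read, occurred in PSMB8, PSMB10, PSME1, PSME2 and PSMG4 and in 0.330% of all genes. PSMG4 fell and carries the same letters, so that the motif was not limited to members that rose. The match begins 3 bases before the start of PSMB8, 21 before that of PSMB10, 28 before that of PSME2 and 6 after that of PSME1. Below, each stretch runs 5′ to 3′ on the strand of its gene, from 100 bases before the start to 30 bases from it, with the match in capitals, on either strand. PSMB8 has another RefSeq start whose window holds no match.
PSMB8: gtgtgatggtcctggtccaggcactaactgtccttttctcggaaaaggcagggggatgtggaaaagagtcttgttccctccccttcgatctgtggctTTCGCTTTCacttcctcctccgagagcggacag
PSMB10: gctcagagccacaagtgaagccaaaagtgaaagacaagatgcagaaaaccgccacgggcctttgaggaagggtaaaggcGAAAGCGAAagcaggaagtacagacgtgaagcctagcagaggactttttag
PSME1: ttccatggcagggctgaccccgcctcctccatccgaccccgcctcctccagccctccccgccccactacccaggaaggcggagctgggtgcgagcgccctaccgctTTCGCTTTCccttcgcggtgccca
PSME2: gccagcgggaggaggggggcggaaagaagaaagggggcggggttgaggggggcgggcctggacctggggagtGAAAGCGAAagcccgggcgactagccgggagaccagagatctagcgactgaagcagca
These stretches lie at chr6:32844018-32844147 (minus strand), chr16:67936821-67936950 (minus), chr14:24136094-24136223 (plus) and chr14:24146581-24146710 (minus). For PSMA3, the member that fell most, the window holds no such match, and the capitals mark the reverse complement of CCAAT and CCAAT itself, which begin 35 and 18 bases before the start (chr14:58244743-58244872, plus strand).
PSMA3: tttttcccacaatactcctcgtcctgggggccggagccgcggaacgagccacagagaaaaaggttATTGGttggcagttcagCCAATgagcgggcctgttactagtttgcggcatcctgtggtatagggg
The members lie on 17 chromosomes. CCAAT was found in 19 of 40 members (47.5%), against 39.7% of all genes, in 8 of 15 members that fell and in 1 of 5 that rose. A match is a string of letters and not evidence of a bound factor. PSME1 and PSME2 are neighbours on chromosome 14, with 4394 bases between them, and PSMB8 and PSMB9 overlap on chromosome 6, so that members of each pair are not independent in position.

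Within the regulatory particle, the estimates of the base lay nearest to 0. None of the 6 ATPase genes passed, with log2 fold changes from -0.07 to 0.08. The highest estimate was that of PSMC1, which also had the lowest mean (13.2 CPM) and an uncertain count, as described below. PSMD1 and PSMD2, the large scaffold subunits that receive ubiquitin-like domains, fell: PSMD2 went from 289 ± 33.0 to 265 ± 27.4 CPM (SD, n = 3), a log2 fold change of -0.13 ± 0.04 (SE, adjusted p = 0.0118), and PSMD1 had -0.13 ± 0.04 (SE, adjusted p = 0.0235). PSMD4, a ubiquitin receptor, did not pass (-0.05 ± 0.05, SE). The 9 base genes had a median of -0.05.

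In the lid 5 of 8 genes fell (62.5%, against 16.2% of all genes): PSMD3, PSMD11, PSMD12, PSMD13 and PSMD14. PSMD13 stood at 115, 116 and 120.1 CPM (siCtrl) against 102, 94.4 and 94.8 CPM (siMED12), without overlap and with a log2 fold change of -0.27 ± 0.05 (SE, adjusted p = 5.11e-05). PSMD3 behaved alike, at 178, 190.3 and 165 CPM (siCtrl) against 153, 157 and 148 CPM (siMED12) and with a log2 fold change of -0.22 ± 0.04 (SE, adjusted p = 0.000146). PSMD14, the deubiquitinase, stood at 60.9, 68.0 and 53.2 CPM (siCtrl) against 56.7, 59.0 and 43.8 CPM (siMED12). Its groups overlapped, and the decrease within pairs gave -0.19 ± 0.06 (SE, adjusted p = 0.0132). PSMD6, PSMD7 and PSMD8 lay between -0.09 and 0.07 and did not pass. The lid median was -0.19, and its pair medians were -0.15, -0.20 and -0.16, against -0.03, 0.01 and -0.04 for the base. The difference between lid and base was not tested.

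Of the 7 assembly chaperones, 3 were called lower (42.9%, against 16.2% of all genes). Called higher was 1 (14.3%, against 17.1% of all genes). The PSMG proteins build the alpha ring of the core, and PSMG1, PSMG3 and PSMG4 fell. PSMG1 stood at 35.2, 36.4 and 36.5 CPM (siCtrl) against 28.0, 29.9 and 31.2 CPM (siMED12), without overlap and with a log2 fold change of -0.28 ± 0.08 (SE, adjusted p = 0.00345). PSMG4 stood at 23.4, 19.99 and 23.1 CPM (siCtrl) against 18.4, 15.03 and 20.03 CPM (siMED12), with -0.32 ± 0.10 (SE, adjusted p = 0.00820). PSMG3 stood at 45.0, 50.6 and 58.3 CPM (siCtrl) against 35.7, 46.3 and 52.6 CPM (siMED12), where replicates differed more than the groups, with -0.20 ± 0.07 (SE, adjusted p = 0.0170). PSMG2, the partner of PSMG1, was lower in pairs 1 and 2 but not in pair 3 and did not pass (-0.14 ± 0.08, SE).

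PSMD5, PSMD9 and PSMD10 are chaperones of the base. PSMD10, known as the oncoprotein gankyrin, rose: it stood at 39.6, 39.5 and 40.8 CPM (siCtrl) against 45.9, 52.4 and 45.7 CPM (siMED12), without overlap, with a log2 fold change of 0.26 ± 0.07 (SE, adjusted p = 0.00288). Its increase was larger in pair 2 than in the other pairs (15.7%, 32.5% and 12.0% in pairs 1 to 3), and without pair 2 the adjusted p was 0.1495. PSMD5 went from 52.8 ± 8.92 to 58.7 ± 6.76 CPM (SD, n = 3) and did not pass, with a log2 fold change of 0.16 ± 0.06 (SE, adjusted p = 0.0544). PSMD9 did not pass (0.09 ± 0.10, SE), nor did PAAF1, a base chaperone outside the PSM symbols (-0.07 ± 0.08, SE).

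**Figure D4:**
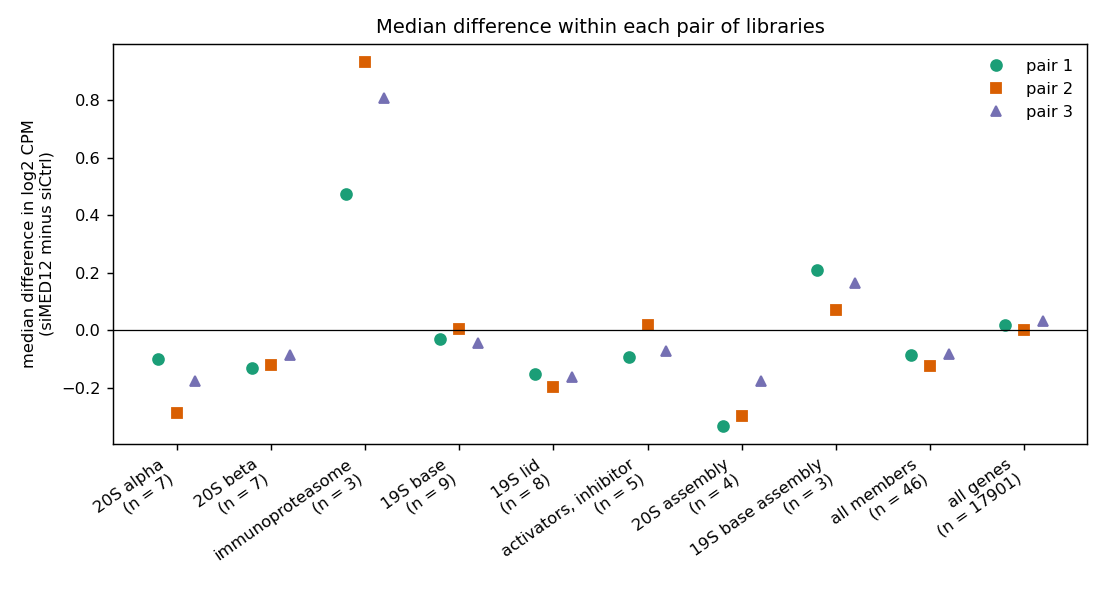
Median difference in log2 CPM (siMED12 minus siCtrl, y axis) within each pair of same-numbered libraries, by part of the proteasome and for all members and all genes tested (x axis, with the number of genes). The 20S alpha, 20S beta, lid and 20S assembly medians are below 0 in each pair, and the immunoproteasome and base assembly medians are above 0 in each pair.

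Which decreases were most stable was read from 7 blocked settings (2 other scalings, another test, and the loss of each pair beside the blocked fit). PSMA3, PSMA5, PSMA7, PSMB3, PSMD3, PSMD11, PSMD12, PSMD13, PSME3 and PSMG1 were called lower in all 7, that is 10 of the 20 genes that fell. Without one of the pairs, PSMB6 had an adjusted p of up to 0.188, PSMB7 of 0.201, PSMB1 of 0.143, PSMB2 of 0.151, PSMD1 of 0.0634, PSMD14 of 0.127, PSME4 of 0.0677 and PSMG3 of 0.155 (edgeR with the block). Scaling by library size only kept 11 of the 20 decreases (23.9% of members, against 13.5% of all genes called lower) and all 5 increases (21.3% of all genes called higher). The blocked DESeq2 Wald test kept 11 of the 20 (23.9% of members, against 11.5% of all genes) and 4 of the 5 (9.94% of all genes called higher). With DESeq2 size factors 20 members were lower and 5 higher, against 17.1% and 16.5% of all genes. Without pair 1, 2 or 3, 17, 18 and 15 members were lower, against 14.2%, 14.5% and 14.4% of all genes, and 4, 3 and 4 were higher, against 11.4%, 12.0% and 13.3%.

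For 10 members the count itself is uncertain. More than 25% of the coding bases of PSMA1, PSMA2, PSMA6, PSMB10, PSMC1, PSMD7 and PSMD9 were also annotated as exons of another gene. More than 5% of the 50-base stretches of PSMA6, PSMC1, PSMC6, PSMD2 and PSMD4 recurred in another gene's transcripts, mostly processed pseudogenes. The handling of such reads is not given in the sources used here. PSMA2, all of whose coding bases were shared, stood at 2.14 ± 0.613 against 2.32 ± 1.25 CPM, and PSMA6, with 89.7% shared, at 3.95 ± 0.338 against 3.42 ± 0.641 CPM (SD, n = 3), far below the other alpha genes, which assemble in equal numbers, so that their levels should not be set against those of other members. For PSMB10, 60.0% of the coding bases were shared with ENSG00000261884 on the same strand, whose own level was 0.760 to 3.54 CPM with a log2 fold change of -0.61 that did not pass (edgeR with the block, adjusted p = 0.164). The share of PSMB10 beside PSMB7 carries the same doubt. For PSMC1, 47.7% of the coding bases were shared with NRDE2 on the opposite strand. NRDE2 itself rose, with a log2 fold change of 0.23 (edgeR with the block, adjusted p = 0.0152). PSMB10 and PSMD2 were the only members among the 10 that were called.

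Around the proteasome, a list of 39 genes of subunits without a PSM symbol, ubiquitin receptors, associated enzymes, transcriptional control, ubiquitin itself and interferon-linked antigen processing held 37 tested genes. Without the block none was called in either direction by edgeR. At an unadjusted p below 0.05 there were 5 lower and 1 higher, against 7.93% and 7.65% of all genes, and the DESeq2 Wald test called 1 higher, against 1.78% of all genes. With the block 10 (27.0%) fell and 8 (21.6%) rose, against 16.2% and 17.1% of all genes, and the list median was -0.03. The limits on shared bases and shared stretches were passed by 9 of the 37, among them TAP2 with 93.9% of its coding bases inside ENSG00000250264 on the same strand, IRF1 with 59.5%, ADRM1 with 29.6%, UBQLN4 with 24.7% of its stretches shared with UBQLN4P1, and TAPBP with 6.22% shared, so that their values are uncertain in the same way.

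POMP, the maturation factor that helps the core close, fell from 67.1 ± 6.53 to 58.9 ± 5.65 CPM (SD, n = 3), a log2 fold change of -0.19 ± 0.06 (SE, adjusted p = 0.0105), with an adjusted p of 0.0541 without pair 1. ADRM1, a ubiquitin receptor of the base, and SEM1, a small lid subunit, did not pass (-0.11 ± 0.05 and -0.10 ± 0.06, SE). UCHL5, the deubiquitinase that binds ADRM1, stood at 171, 171 and 143 CPM (siCtrl) against 125, 133 and 121 CPM (siMED12), without overlap, with a log2 fold change of -0.35 ± 0.05 (SE, adjusted p = 1.96e-07). UBQLN4, a shuttle that brings substrates to the proteasome, fell from 130.4 ± 8.25 to 106 ± 8.25 CPM, with -0.30 ± 0.05 (SE, adjusted p = 3.09e-06).

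Of the factors that control proteasome genes, NFE2L1 rose slightly, from 206 ± 9.29 to 225 ± 18.8 CPM (SD, n = 3), with a log2 fold change of 0.13 ± 0.04 (SE, adjusted p = 0.0200). The call was lost without any one pair, at an adjusted p of 0.0540, 0.0986 and 0.211 without pair 1, 2 and 3 (edgeR with the block). NFE2L2 did not pass (SE 0.07, adjusted p = 0.985 in edgeR with the block), at 44.1 ± 8.77 against 43.9 ± 6.08 CPM. NFE2L1 is controlled largely as a protein, which these data do not measure.

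The genes of antigen processing did not move as 1 group. ERAP1, which trims peptides in the endoplasmic reticulum, stood at 16.4, 16.3 and 17.6 CPM (siCtrl) against 23.3, 27.9 and 28.6 CPM (siMED12), without overlap and with a log2 fold change of 0.67 ± 0.09 (SE, adjusted p = 3.19e-07). TAPBP, which loads peptides on MHC class I, rose with 0.21 ± 0.05 (SE, adjusted p = 0.00120). TAP2, a chain of the peptide transporter, fell instead, at 16.3, 15.7 and 16.6 CPM (siCtrl) against 12.5, 9.35 and 13.02 CPM (siMED12), without overlap and with -0.49 ± 0.12 (SE, adjusted p = 0.00115). Its partner TAP1 was at 30.6 ± 4.74 against 30.8 ± 0.932 CPM and did not pass (0.01 ± 0.08, SE), and of the interferon regulators IRF1 did not pass (-0.27 ± 0.18, SE) while NLRC5 was below 1 CPM in each library and was not tested.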

How the data were processed

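RNA-seq was analysed in 6 libraries of 22Rv1 cells, 3 per group, with groups and replicate numbers from the labels. Per the labels and methods, poly(A) RNA was captured for strand-specific libraries. The authors aligned and counted reads with Rsubread on GRCh38.p13 with Gencode release 43; the strand and multiple-match settings are not given in the sources used here. The deposited counts are raw reads per gene for 62703 genes. A second deposited table holds log2 CPM for 17901 genes. Recomputing it in edgeR (filterByExpr, TMM, prior count of 2) changed no value by more than 4.96e-09, so it contains no batch correction; a correction that the study mentions for a display is not described in the sources used here.

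Counts were tested with edgeR 4.0.16 (R 4.3.3, filterByExpr, TMM, quasi-likelihood F-test, two-sided), Benjamini-Hochberg adjustment over 17901 genes and calls at 0.05. Treatment was the only term. The standard error is the size of the log2 fold change divided by the root of F. CPM uses TMM-adjusted library sizes. The procedure was tested on simulated data.

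Deviations from group means correlated at 0.532, 0.373 and 0.643 for same-numbered libraries and at -0.460 to -0.0233 for the others. Deviations cancel out within a group, so the negative values follow in part from the positive ones and are no separate evidence of pairing. Same-numbered libraries were treated as pairs, with a fit blocked on the number beside the unblocked one. The pairing was thus read from the same data that were tested. Chi-square values per degree of freedom of 11.4 to 46.7 between replicates showed no duplicates.

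The members and lists were chosen with earlier results of these data known. Named genes were the catalytic, immunoproteasome, activator, inhibitor and assembly genes, the 6 largest called decreases and increases with the block at a mean of at least 10 CPM, MED12, NFE2L1, NFE2L2, POMP, ADRM1, SEM1 and, of the pathway list, the 3 largest called changes in each direction. Some genes of the lists are not reported here. Any further gene was picked with its values in view. Coordinates, exons and transcript lengths came from Gencode release 44, in which 99.9% of counted genes had an entry, and promoter windows from RefSeq (GRCh38.p14). Alternatives were DESeq2 1.42.0 size factors and Wald test, library size only, limma-trend (limma 3.58.1), other filters, blocking on the replicate number, and dropping each library or pair.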

Additional observations from a re-analysis of the deposited data

How the results depend on the processing

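Of 190 recomputed counts, medians and MED12 values, 134 stayed within their limits. With the replicate block, members called lower went from 0 to 20, and to 20 with DESeq2 size factors, 11 with library size only, 11 with the Wald test and 17, 18 and 15 after dropping pair 1, 2 or 3. Of all genes 16.2%, 17.1%, 13.5%, 11.5%, 14.2%, 14.5% and 14.4% were then lower. The unblocked Wald test called 1, against 2.69% of all genes. Members called higher were, in the same order, 5, 5, 6, 4, 4, 3 and 4, against 17.1%, 16.5%, 21.3%, 9.94%, 11.4%, 12.0% and 13.3% of all genes. Of the other pathway genes, 10, 12, 9, 8, 9, 11 and 10 were lower and 8, 6, 9, 3, 3, 4 and 3 higher, with 1 higher without a filter and 1 with the unblocked Wald test. The median of all members was -0.042 with library size only (-0.041 blocked), -0.116 and -0.119 blocked after dropping pair 1 or 2, and -0.138 to -0.058 when single libraries were dropped. That of the regulatory genes was -0.029 with library size only (-0.030 blocked), -0.089 at a mean of at least 1 CPM, -0.097 and -0.126 blocked after dropping pair 1 or 2, and -0.134 to -0.018 over single libraries. The core median reached -0.194 blocked and without pair 1. The difference from the median of all genes was -0.10 under each of the 3 scalings. MED12 ranged from -1.90 to -1.45 over single libraries, with an adjusted p of up to 0.186 in edgeR, and stayed called with the block. PSMB5 ranged from -0.109 to 0.012 and PSMF1 from -0.173 to 0.025, both turning positive when siMED12 replicate 3 was dropped. NFE2L2 turned to 0.033 with library size only (0.039 blocked), 0.0014 with limma-trend, 0.039 blocked without pair 1, and ranged from -0.129 to 0.138 over single libraries, with 0.092 for the loss of siMED12 replicate 3. The cause of these changes was not tested. Of 627 values of single genes, 150 passed the threshold under an alternative only, 147 of them with the block. Low counts limit the immunoproteasome values.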

Other observations

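In the same promoter windows 7 further motifs were searched on both strands, and their shares are descriptions with no test. CGGAAG, the core of ETS factor sites, was in 60.0% of 40 members with a window, against 22.6% of 27305 genes, in 8 of 15 members that fell and 1 of 5 that rose. TGACNNNGC, a form of the antioxidant response element, was in 37.5% of members against 16.1% of genes, in 6 of 15 that fell and 2 of 5 that rose. GGGCGG, the GC box, was in 70.0% against 48.3%, and TGACG, the core of cAMP response elements, in 45.0% against 28.4%. TTCNNNGAA was in 17.5% against 9.38%, in 3 of 15 that fell and 1 of 5 that rose. CACGTG, an E-box, was in 7.5% against 8.77% and GGAANTCCC, an NF-kappaB form, in 2.5% against 2.23%. TGACG and TGACNNNGC can overlap.

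Per kilobase, PSMB4 had the highest level of the members in siCtrl (309.9 CPM per kilobase), followed by PSMA7 (187), PSMB1 (144) and PSMB6 (144), and PSME1 (141) stood beside PSMB5 (138). Among the chaperones PSMG2 (37.3) and PSMG3 (35.9) were highest and PSMD9 (6.36) lowest. The 3 immunoproteasome genes lay between 1.11 and 1.67. PSMB4, PSMA7 and PSMB1 were named for their levels after these were seen.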
